A study of Mus musculus with 8 samples.

Results

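The SNARE proteins of granule exocytosis, the proteins that load and prime them, and the granule GTPase Rab27b were followed in the RNA of cultured mouse peritoneal mast cells (PMCs). The 10 genes were chosen by symbol: Vamp2, Vamp3, Vamp7, Vamp8, Stx3, Stx4a, Snap23, Stxbp2, Unc13d and Rab27b. Of these, 9 had a row among the 55359 genes of the deposited count table, and Vamp7 was not analysed here. All 9 passed the filter on low counts in both comparisons. The study holds 8 total RNA libraries from untreated cells that came from wild-type mice on a mixed C57BL/6x129/Sv background. PMC-303 and PMC-306 are lines that grew out of primary PMC cultures without a deliberate transformation, and each is represented by 1 library. The other 6 libraries are primary WT PMC cultures, 3 from female and 3 from male mice. By the karyotypes in the paper, PMC-306 was male, with a heterozygous deletion within chromosome 4 in all analysed cells and a Y translocation in some. PMC-303 had a trisomy of chromosome 8 in most analysed metaphases. The lines were grown in medium with less serum and less stem cell factor than the primary cultures. Medium, chromosome changes and transformation cannot be told apart in any difference between the lines and the primary cultures. The paper also grew PMC-306 in medium like that of the primary cultures. The transcripts it measured there, mostly of granule proteases, did not change, and these 9 genes were not among them.

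Mast cells store histamine, proteases and proteoglycans in secretory granules and release them when a granule fuses with the plasma membrane or with another granule. Fusion is driven by a bundle of SNARE helices, in which an R-SNARE on the granule, a VAMP protein, pairs with a syntaxin and with a SNAP protein of the target membrane. Munc18-2, encoded by Stxbp2, chaperones the syntaxin, Munc13-4, encoded by Unc13d, tethers and primes the granule, and Rab27 proteins on the granule surface recruit Munc13-4 and other effectors. In people, loss of UNC13D or STXBP2 causes familial hemophagocytic lymphohistiocytosis, a disease of failed cytotoxic granule release.

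The R-SNAREs are close relatives, and their most alike stretch is shown because the reads of the R-SNARE that rose had to be told apart from those of its neighbours. The 90 coding bases of the SNARE motif in which Vamp2 and Vamp3 were most alike within 1 exon of each are printed with the bases at which they differ from each other in capitals. For Vamp8 the ungapped stretch nearest to that of Vamp2 is given, with its differences from Vamp2 in capitals. The Vamp2 bases lie at chr11:68980599-68980688 on the plus strand of GRCm39, those of Vamp3 at chr4:151135401-151135490 on the minus strand, and those of Vamp8 in 2 exons at chr6:72365245-72365298 and chr6:72362601-72362636 on the minus strand.
Vamp2: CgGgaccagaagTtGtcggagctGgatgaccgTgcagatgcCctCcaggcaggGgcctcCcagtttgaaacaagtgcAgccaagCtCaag
Vamp3: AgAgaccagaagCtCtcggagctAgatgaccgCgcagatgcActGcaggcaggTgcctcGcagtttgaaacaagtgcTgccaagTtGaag
Vamp8: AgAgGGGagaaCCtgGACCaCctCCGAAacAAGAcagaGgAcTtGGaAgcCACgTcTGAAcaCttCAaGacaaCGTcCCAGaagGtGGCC

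Vamp2 and Vamp3 shared 77 of these 90 bases, and Vamp2 and Vamp8 shared 39. Over the aligned coding sequence Vamp2 and Vamp3 were 72.7% identical, with no identical run longer than 17 bases. Vamp8 was 59.6% identical to Vamp2 and 55.5% to Vamp3. Stx3 and Stx4a were 57.3% identical, with a longest run of 14 bases. Rab27b and its paralog Rab27a were 69.2% identical, with a longest run of 22 bases. Words of 31 bases taken from the annotated transcripts of each gene, introns that are retained in some of them included, also occurred in transcripts of other genes for between 0.05% of the words in Vamp2 and 6.43% in Unc13d, with 3.74% in Vamp3.

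The depth of the libraries, from 15918758 to 24180226 estimated counts, gave at least 168 counts for the scarcest of the 9 genes, Vamp2, in its lowest library. Counts are given as CPM, that is, per library size scaled by the trimmed mean of M values (TMM). All 10 mast cell markers on a list that includes Kit, Cpa3 and Cma1 were detected, with a summed level of 48011 to 77691 CPM in the primary cultures, 41201 in PMC-303 and 37474 in PMC-306. Against the primary range, 3 of the 10 lay below and 1 above in PMC-303, and 6 below and 2 above in PMC-306, with Kit, Fcer1a and Tpsb2 below in both. Lists for B cells, T cells, mesothelial cells and fibroblasts, neutrophils and eosinophils held no gene at 1 CPM in any library. Of 7 macrophage markers 3 reached 1 CPM, with sums of 7.22 to 68.7 CPM in the primary cultures, 7.16 in PMC-303 and 441 in PMC-306, of which Adgre1 made up 426 CPM, Cd68 13.9 (1.48 to 17.8 in the primary cultures) and Lyz2 1.13 (1.18 to 18.0), while Csf1r, C1qa, C1qb and Cd14 stayed below 1 CPM in every library. The 3 proliferation genes Mki67, Top2a and Pcna summed to 152 to 294 CPM in the primary cultures, 2137 in PMC-303 and 1795 in PMC-306. In a bulk library, fewer cells of a type and less RNA per cell cannot be told apart, and the part of these marker genes in the results was not tested.

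Per length of transcript, Rab27b was the most abundant of the 9 genes in primary PMCs and Vamp2 the scarcest. In TPM, which divides by transcript length and allows genes to be compared, Rab27b was at 249 ± 31.1 (SD, n = 6). Stxbp2 followed at 139 ± 15.4 and Vamp8 at 137 ± 13.99, and these neighbours overlapped, with Stxbp2 higher in 3 of 6 cultures. Snap23 at 86.1 ± 15.9 and Unc13d at 81.2 ± 7.81 overlapped as well. Stx4a was at 48.5 ± 5.56, above both Vamp3 at 33.7 ± 5.17 and Stx3 at 33.0 ± 7.44, which overlapped with each other. Vamp2 was at 8.85 ± 1.12, below Stx3 in 6 of 6 cultures. Between cultures the genes were close, with a coefficient of variation in CPM of 4.38% for Unc13d to 18.0% for Snap23. Their median was 7.90%, beside a median of 13.8% over all 14525 genes tested. That background includes genes with far fewer counts, which vary more by sampling, and genes of like level were not compared.

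**Figure D1:**
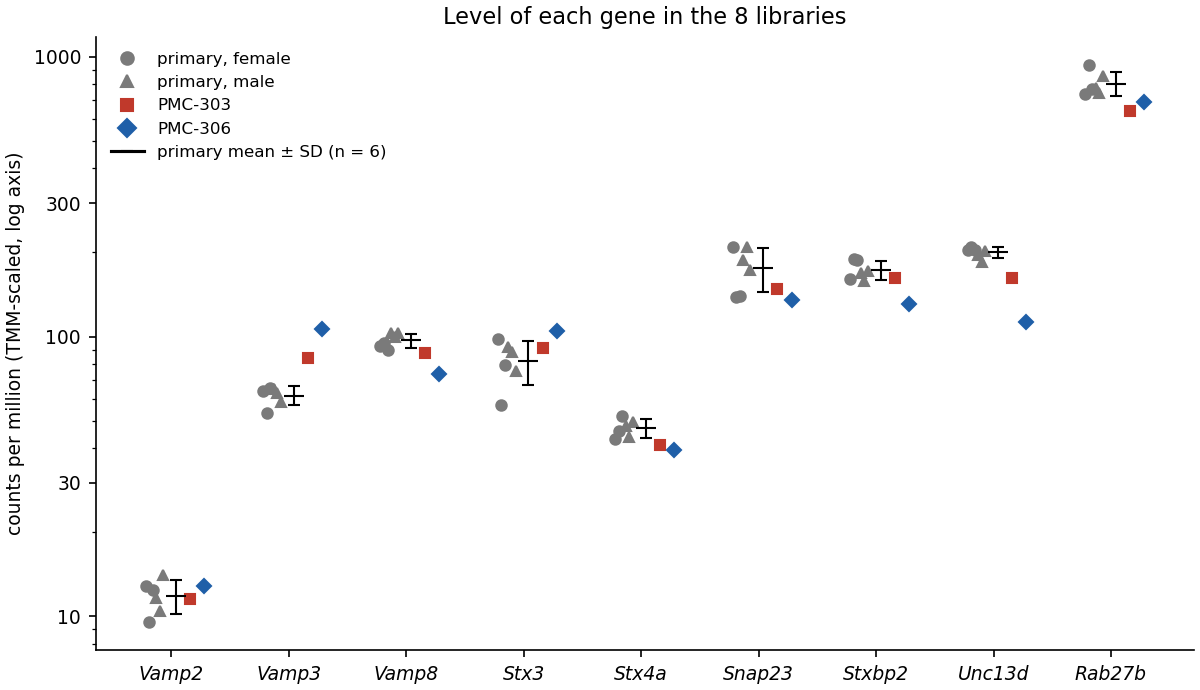
Level of each gene in CPM with TMM-scaled library sizes (log axis) in 3 female and 3 male primary PMC cultures (grey circles and triangles), PMC-303 (red squares) and PMC-306 (blue diamonds), with the mean ± SD of the 6 primary cultures in black. Vamp3 lies above and Unc13d below all 6 primary cultures in both lines, while Vamp2 lies among them. CPM is not divided by length, so that heights are to be compared between libraries and not between genes.

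Both lines were then compared with the 6 primary cultures to see whether the fusion machinery kept its level in transformed cells. With limma on log2(CPM + 0.1) and Benjamini-Hochberg adjustment over 14525 genes, 3 of the 9 genes passed an adjusted p of 0.05, beside 33.8% of all genes. Vamp3 rose (18.3% of all genes rose) and Vamp8 and Unc13d fell (15.5% of all genes fell). None of the 9 reached a 2-fold difference, beside 19.1% of all genes. The median absolute log2 difference was 0.27 over the 9 genes and 0.38 over all genes. Genes with few counts are part of these backgrounds, and genes of like level were not compared. With 1 library of each line, these p-values rest on the spread between cultures and on the difference between the lines, and nothing repeats either line.

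**Figure D2:**
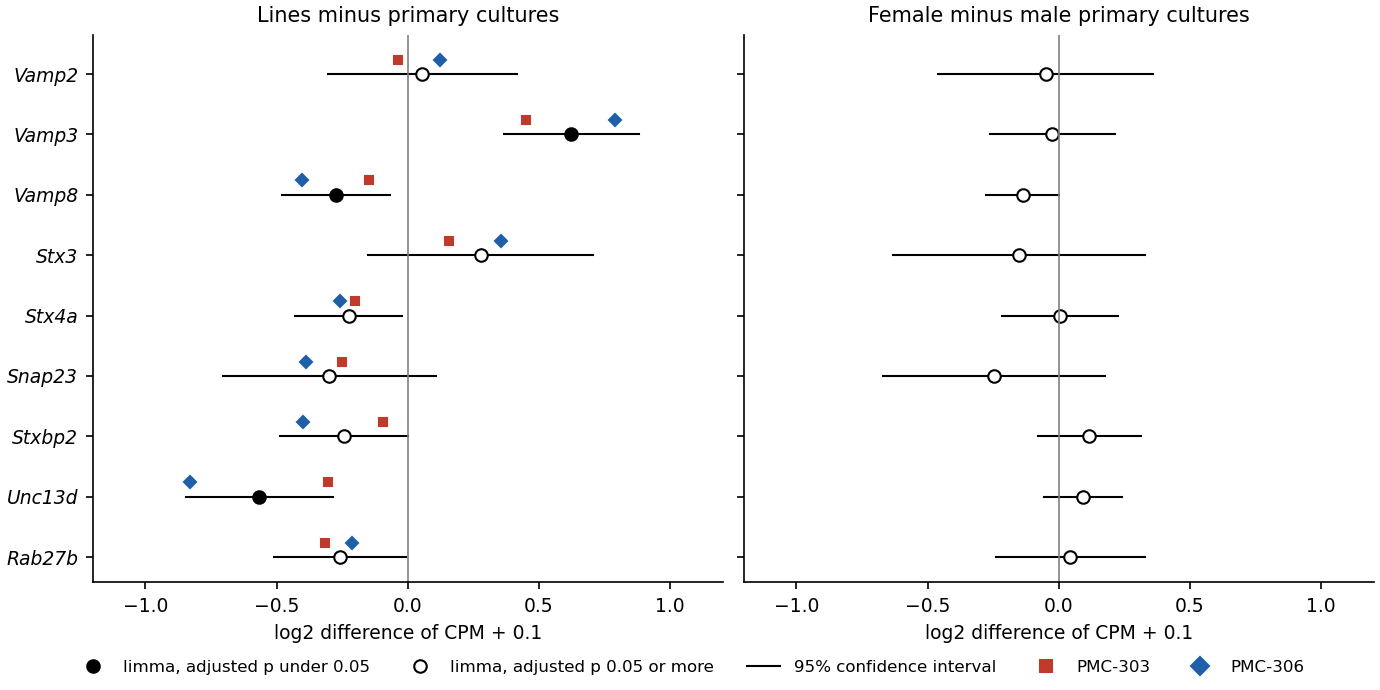
Log2 difference of CPM + 0.1 for each gene between both lines and the 6 primary cultures (left) and between 3 female and 3 male primary cultures (right), as circles with the 95% confidence interval from limma. Filled circles passed an adjusted p of 0.05, and red squares and blue diamonds give PMC-303 and PMC-306 against the primary mean. Vamp3 is filled to the right of 0, Vamp8 and Unc13d are filled to the left, and no gene is filled in the comparison of sexes.

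Among the R-SNAREs, Vamp3 was the gene that rose. Vamp3, also called cellubrevin, is best known for the traffic of recycling endosomes and for cytokine release, and its gene lies at chr4:151131757-151142433 on the minus strand of GRCm39. It was at 53.3 CPM in the lowest, 63.4 in the median and 65.8 in the highest primary culture, and at 84.2 CPM in PMC-303 and 107 in PMC-306. Both lines lay above every primary culture and PMC-306 lay above PMC-303. The fitted difference was 0.62 ± 0.11 (SE) on the log2 scale, a fold of 1.54 with a 95% confidence interval of 1.29 to 1.84 (limma, adjusted p = 0.00361). PMC-306 alone stood 0.79 and PMC-303 alone 0.45 above the primary mean on the log2 scale. The rise missed the threshold when female cultures alone served as controls (limma, adjusted p = 0.0528, difference 0.63), and it passed in the other 16 of 17 settings tried.

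Vamp8, or endobrevin, is the R-SNARE that mast cell studies have tied most firmly to the release of granule contents, and its gene lies at chr6:72359012-72368482 on the minus strand. It was at 89.6 CPM in the lowest, 97.1 in the median and 103 in the highest primary culture, and at 87.6 CPM in PMC-303 and 73.3 in PMC-306. Both lines lay below all primary cultures, PMC-303 by a small margin. The fitted difference was −0.27 ± 0.09 (SE, limma, adjusted p = 0.0452), a fold of 0.827 (95% confidence interval 0.718 to 0.953). The call passed in 5 of 17 other settings. It was lost without PMC-306, which left a single line and a difference of −0.14. Leaving out any 1 of female cultures 1 and 2 and the 3 male cultures lost it too (limma, adjusted p from 0.0592 to 0.0796). It was also lost by total counts, without the filter on low counts, with voom weights, with controls of 1 sex and in TPM (limma, adjusted p from 0.0515 with voom weights to 0.610 in TPM, where the difference was −0.11).

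Vamp2, synaptobrevin 2, the R-SNARE of synaptic vesicles, was scarce throughout. It was at 9.53 CPM in the lowest, 11.99 in the median and 14.1 in the highest primary culture, and at 11.5 CPM in PMC-303 and 12.9 in PMC-306. Both lines lay within the primary range. The fitted difference was 0.06 ± 0.16 (SE, limma, adjusted p = 0.816), and its 95% confidence interval, from a fold of 0.810 to 1.33, leaves room for changes of that size.

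Seen as shares of the TPM of these 3 R-SNAREs within a library, which no library scaling can alter, the part of Vamp8 was smaller and that of Vamp3 larger in both lines. Vamp8 made up 76.3% ± 2.10 (SD, n = 6; 73.7% to 79.0%) in the primary cultures, 70.4% in PMC-303 and 60.5% in PMC-306. Vamp3 made up 18.7% ± 1.64 (16.6% to 20.7%) in the primary cultures, 25.0% in PMC-303 and 33.5% in PMC-306. Both shares lay outside the primary range in both lines, and the distance was larger in PMC-306. The shares depend on each other. In PMC-303 the TPM of Vamp8, 137, was that of the primary mean, while that of Vamp3 was 48.7, beside a primary mean of 33.7. In CPM, Vamp8 in PMC-303 was at 90.3% of the primary mean and below all 6 primary cultures. Whether Vamp8 itself was lower in PMC-303 thus depended on scaling, and its smaller share there is no separate result about Vamp8. Vamp2 made up 4.96% ± 0.740 in the primary cultures, 4.65% in PMC-303 and 5.97% in PMC-306, the last just above the highest primary share of 5.90%. With 2 libraries against 6 and the shares built from the same counts, no test was made of them.

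**Figure D3:**
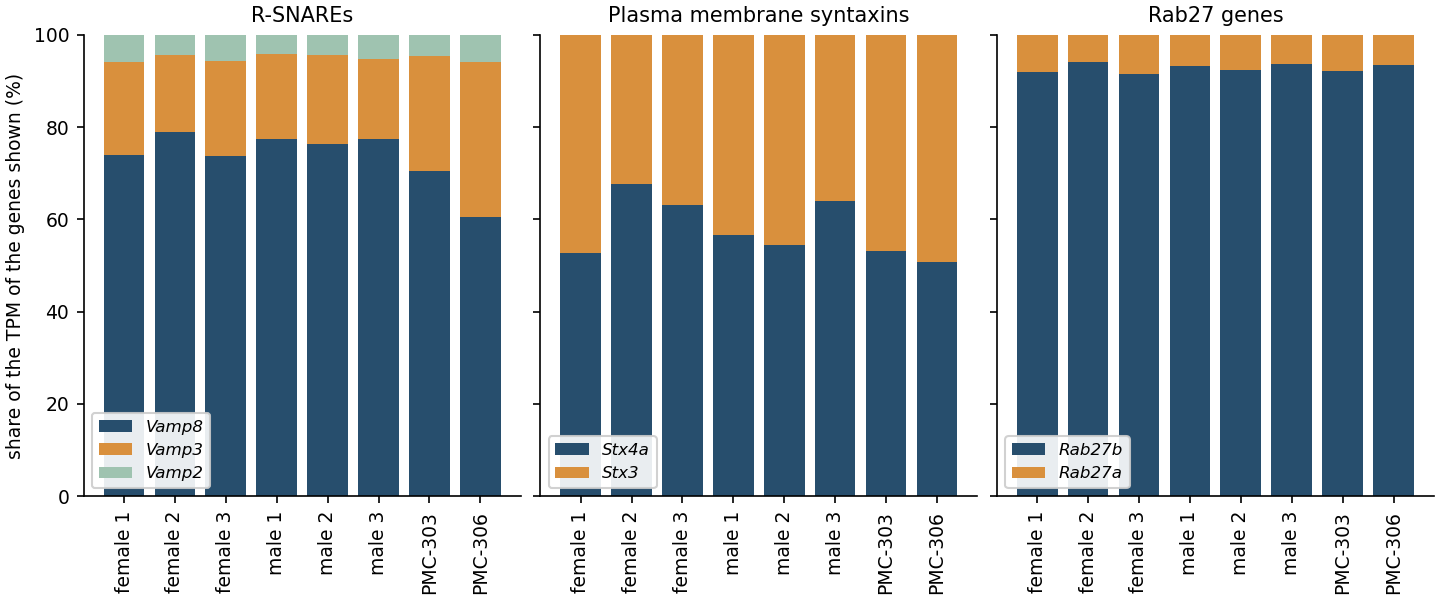
Shares of the TPM of 3 R-SNAREs (left), of Stx3 and Stx4a (middle) and of both Rab27 genes (right) in each of the 8 libraries, in percent. The Vamp3 part (orange, left) widens from 16.6% to 20.7% in the primary cultures to 25.0% in PMC-303 and 33.5% in PMC-306, while Rab27b stays between 91.5% and 94.1% in all 8 libraries.

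The syntaxins and Snap23, the partners on the target membrane, did not pass the test. Stx4a, encoding a syntaxin of the plasma membrane, was at 43.1 CPM in the lowest, 47.0 in the median and 52.3 in the highest primary culture, and at 41.0 CPM in PMC-303 and 39.4 in PMC-306. Both lines lay below the primary range, by less than its width (−0.23 ± 0.09, SE, limma, adjusted p = 0.0827). Stx3, a syntaxin found on granules and on the plasma membrane, varied more, with 56.9 CPM in the lowest, 84.0 in the median and 97.9 in the highest primary culture, 91.1 CPM in PMC-303 and 104.5 in PMC-306. PMC-306 lay above the primary range and PMC-303 within it (0.28 ± 0.19, SE, limma, adjusted p = 0.289). The share of Stx3 in the TPM of both syntaxins was 40.2% ± 5.97 (SD, n = 6; 32.3% to 47.2%) in the primary cultures, 46.9% in PMC-303 and 49.3% in PMC-306. From counts divided by the length of the longest transcript it was 23.6%, 28.4% and 32.2% in the same order.

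Snap23, encoding the SNAP protein of non-neuronal exocytosis, had a coefficient of variation in CPM of 18.0% between primary cultures, next to 17.9% for Stx3. It was at 139 CPM in the lowest, 181 in the median and 209 in the highest primary culture, and at 148 CPM in PMC-303 and 135 in PMC-306. Female cultures 2 and 3 were both at 139 CPM, so that PMC-306 lay only just below the range and PMC-303 within it. The fitted difference was −0.30 ± 0.18 (SE, limma, adjusted p = 0.232), with a 95% confidence interval from a fold of 0.614 to 1.08. Snap25, its neuronal relative, was at 0.196 CPM or less in all 8 libraries and could not be tested. Snap29 was at 103 ± 9.29 CPM (SD, n = 6) in the primary cultures, 93.7 in PMC-303 and 85.1 in PMC-306 (limma, adjusted p = 0.146).

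Unc13d, which encodes the priming factor Munc13-4 at chr11:115952915-115968805 on the minus strand, fell in both lines and had the lowest spread of the 9 genes in the primary cultures. It was at 185 CPM in the lowest, 204 in the median and 210 in the highest primary culture, and at 162 CPM in PMC-303 and 113 in PMC-306. Both lines lay below all primary cultures, and PMC-306 reached 56.3% of the primary mean. The fitted difference was −0.57 ± 0.12 (SE, limma, adjusted p = 0.00846), a fold of 0.676 (95% confidence interval 0.557 to 0.821). Its size depended on PMC-306. Without that library the difference was −0.30, and without PMC-303 it was −0.82. Each of these fits set a single line against the primary cultures, whose spread it was assumed to share. PMC-306 is also the library with 426 CPM of Adgre1, while the macrophage markers Cd68 and Lyz2 did not exceed the primary range there, and the part of Adgre1 in this was not tested. The call was lost in TPM (−0.46, limma, adjusted p = 0.0946) and with controls of 1 sex (limma, adjusted p = 0.0647 for female and 0.0825 for male cultures).

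Its paralog Unc13b, encoding Munc13-2, fell further, from 135 ± 11.5 CPM (SD, n = 6) in the primary cultures to 85.7 in PMC-303 and 53.3 in PMC-306 (log2 difference −0.99 ± 0.16, SE, limma, adjusted p = 0.00250). In both genes the level in PMC-306 was the lower of the 2 lines.

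Stxbp2, encoding Munc18-2 at chr8:3680932-3694003 on the plus strand, was at 158 CPM in the lowest, 170 in the median and 190 in the highest primary culture, and at 162 CPM in PMC-303 and 131 in PMC-306. PMC-306 lay below the range and PMC-303 within it. Stxbp2 lies on the chromosome that was trisomic in most analysed metaphases of PMC-303. This trisomy was not seen in PMC-306, and its part in the contrast between the lines was not tested. The fitted difference of −0.24 ± 0.11 did not pass (SE, limma, adjusted p = 0.112). With a single line set against the primary cultures, whose spread it was then assumed to share, the difference was −0.39 for PMC-306 (limma, adjusted p = 0.0462) and −0.09 for PMC-303 (limma, adjusted p = 0.617). Its relative Stxbp3 rose from 6.79 ± 1.33 CPM (SD, n = 6) to 14.6 in PMC-303 and 22.8 in PMC-306 (limma, adjusted p = 0.00232), a gain of 1.43 ± 0.23 (SE) on the log2 scale.

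Rab27b, on chromosome 18, which docks granules at the plasma membrane of mast cells, did not pass, although both lines lay below the primary range. It was at 734 CPM in the lowest, 771 in the median and 939 in the highest primary culture, and at 643 CPM in PMC-303 and 691 in PMC-306. The fitted difference was −0.26 ± 0.11 (SE, limma, adjusted p = 0.103), a fold of 0.835 (95% confidence interval 0.702 to 0.994 before adjustment). Rab27a was at 52.5 ± 4.51 CPM (SD, n = 6) in the primary cultures, 47.6 in PMC-303 and 40.2 in PMC-306 (−0.26 ± 0.11, SE, limma, adjusted p = 0.0898). Rab27b made up a like share of the TPM of both genes in all libraries, with 92.8% ± 1.04 (SD, n = 6; 91.5% to 94.1%) in the primary cultures, 92.1% in PMC-303 and 93.5% in PMC-306.

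Set against the range of the primary cultures without a test, 1 of the 9 genes (Vamp3) lay above it in both lines, beside 22.9% of all genes, and 4 (Vamp8, Stx4a, Unc13d and Rab27b) lay below it in both, beside 20.1%. PMC-303 was outside the range for 5 of 9 genes (63.4% of all genes) and PMC-306 for 8 of 9 (64.2% of all genes), with Vamp2 as the exception in PMC-306. No gene lay above the range in 1 line and below it in the other. The count of genes outside in both lines depended on scaling, with 5 under TMM, 2 by total counts and 1 in TPM, where only Vamp3 was left. In TPM male culture 3 had the lowest primary value for 6 of the 9 genes, and in CPM for 0. In that library 40.1% of all TPM went to the small RNAs named Metazoa_SRP and 7SK, beside 25.9% to 32.9% in the other 5 primary cultures, which lowers the TPM of every other gene. Of the 4 genes below the range in CPM, Unc13d was within it in TPM through male culture 3 alone (67.5, PMC-303 74.2). For Vamp8, Stx4a and Rab27b, female culture 1 also lay below a line. Vamp8 was at 129 TPM there beside 137 in PMC-303, and Stx4a at 44.4 beside 44.6. Rab27b was at 225 TPM there beside 235 in PMC-306. The part of the small RNAs in the lower count was not tested.

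No difference between female and male primary cultures was found in these genes. None of the 9 passed the limma test, beside 0.0438% of 13696 genes (6 genes), and none had an unadjusted p under 0.05, which 466 genes had. The largest differences were −0.25 ± 0.18 (SE) for Snap23, with 163 CPM in female and 190 in male cultures, and −0.15 ± 0.20 for Stx3, with 78.1 and 85.3 CPM. The lowest unadjusted p of limma was that of Vamp8, 0.0530, with 92.2 CPM in female and 102 in male cultures (95% confidence interval −0.28 to 0.00 on the log2 scale). Adjusted p-values of all 9 genes were 0.999 with limma at 3 against 3 cultures, so that differences within these intervals remain possible.

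The mixture of annotated transcripts was compared in 8 of the 9 genes, since Vamp3 had no transcript that met the limits. Of 20 transcripts that made up between 5% and 95% of their gene, 4 had a share above all 6 primary cultures in both lines, or below all 6 in both, beside 14.3% of 18408 such transcripts in all genes. A count so near the background is no result about these genes as a group. The 4 were Stxbp2-201 with Stxbp2-207 and Unc13d-203 with Unc13d-202, 1 lower and 1 higher share in each of 2 genes. Shares within a gene depend on each other, and Salmon divides reads among overlapping transcripts by estimation, so these are shares of estimated counts.

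Stxbp2-207, the full-length model, made up 15.7% in the lowest, 17.3% in the median and 19.7% in the highest primary culture, and 24.8% in PMC-303 (95% Wilson interval 23.5% to 26.2%) and 24.9% in PMC-306 (23.3% to 26.6%). Stxbp2-201 made up 65.9%, 67.5% and 69.1% in the lowest, median and highest primary culture, and 61.7% in PMC-303 (60.2% to 63.2%) and 62.3% in PMC-306 (60.4% to 64.1%). The 2 lines were alike and apart from all 6 cultures in both transcripts, and the intervals cover counting error only. The transcripts differ at their ends and at 1 splice acceptor. Stxbp2-207 alone holds chr8:3680955-3681169 at the 5′ end and chr8:3692796-3693644 at the 3′ end, and Stxbp2-201, whose annotated start is incomplete, alone holds the 3 bases chr8:3691895-3691897. The junction is shown because these bases are the sole difference inside the coding part that both models cover, with the bases of Stxbp2-201 that Stxbp2-207 skips in capitals, from chr8:3691791-3691820 and chr8:3691895-3691927 on the plus strand of GRCm39.
Stxbp2: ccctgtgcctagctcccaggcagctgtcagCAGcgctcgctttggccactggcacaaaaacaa

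The 3 bases themselves end in AG, as an intron does before a splice acceptor. Which of the differing segments carried the reads that moved the estimate cannot be read from the counts of whole transcripts.

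In Unc13d the models Unc13d-203 and Unc13d-202 are 3998 and 4225 bases long, and the segments in which they differ were not compared. Unc13d-203 made up 59.2% in the lowest, 65.4% in the median and 80.7% in the highest primary culture, and 51.5% in PMC-303 (95% Wilson interval 49.9% to 53.1%) and 58.6% in PMC-306 (56.6% to 60.6%). Unc13d-202 made up 7.64%, 20.04% and 22.5% in the lowest, median and highest primary culture, and 32.4% in PMC-303 (30.96% to 33.9%) and 29.6% in PMC-306 (27.7% to 31.5%). The primary cultures themselves were spread widely in these shares, and for Unc13d-203 the interval of PMC-306 reached into the primary range. A further model, Unc13d-201, had 0% in PMC-303 and in male culture 1, 4.31% in PMC-306 and up to 11.7% in the primary cultures.

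**Figure D4:**
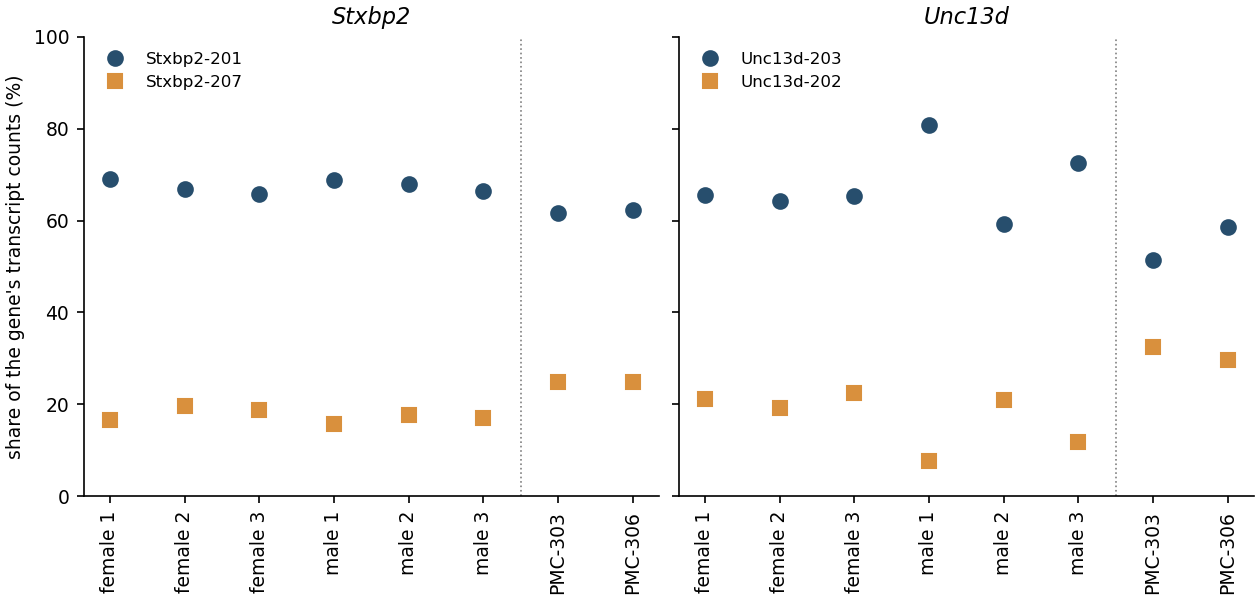
Share of the estimated counts of Stxbp2 (left) and Unc13d (right) assigned to their 2 leading transcripts in each of the 8 libraries, in percent, with primary cultures to the left of the dotted line. Stxbp2-207 lies between 15.7% and 19.7% in the primary cultures and at 24.8% and 24.9% in the lines, and Unc13d-202 lies at 22.5% or less in the primary cultures and at 32.4% and 29.6% in the lines.

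The genes around this core were taken from 5 lists of 123 genes: other SNAREs, SM proteins with priming, calcium sensing and SNARE recycling, secretory Rabs with their effectors, the exocyst, and the biogenesis of lysosome-related organelles. Of 102 that could be tested, 13 rose and 31 fell, 43.1% together beside 33.8% of all genes, with a median log2 difference of −0.19 beside −0.01 over all genes. All 44 kept their direction under the other scalings, but 39 genes passed by total counts (18 higher, 21 lower) and 25 in TPM (14 higher, 11 lower). The median was −0.07 by total counts, beside 0.10 over all genes, and −0.05 in TPM, beside 0.13 over all genes. Without PMC-306 28 genes of the lists passed.

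Of 26 other SNAREs 2 rose and 8 fell, 38.5% together beside 33.8% of all genes. Vamp4, an R-SNARE of the trans-Golgi network, rose from 9.13 ± 0.482 CPM (SD, n = 6) to 13.6 in PMC-303 and 28.1 in PMC-306 (1.09 ± 0.23, SE, limma, adjusted p = 0.00732). Vamp5 fell from 4.40 ± 1.04 to 0.947 and 0.737 CPM (−2.23 ± 0.26, SE, limma, adjusted p = 4.78e-04). Vamp1, closely related to Vamp2, fell by 0.64 on the log2 scale (limma, adjusted p = 0.00807), and Vti1b, a Q-SNARE of endosomes, fell by 0.44 (limma, adjusted p = 0.0184), although both missed the threshold in TPM. Stx11, a syntaxin of cytotoxic granules, was at 24.7 ± 3.59 CPM (SD, n = 6), 24.4 and 23.9 CPM in primary cultures, PMC-303 and PMC-306 (limma, adjusted p = 0.925). Stx2 was at 33.4 ± 3.03, 34.3 and 17.1 CPM in the same order (limma, adjusted p = 0.152).

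Among 19 SM, priming, calcium sensing and recycling genes 2 rose and 5 fell, 36.8% together beside 33.8% of all genes. The largest difference of any list was that of Syt9, a synaptotagmin, with 0.822 ± 0.388 CPM (SD, n = 6) in the primary cultures, 36.3 in PMC-303 and 22.1 in PMC-306 (5.04 ± 0.40, SE, limma, adjusted p = 1.01e-04). Stxbp3 was the other gene that rose and Unc13b the one of the falling genes that fell furthest.

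Of 25 secretory Rabs, effectors and regulators 7 rose and 4 fell, 44% together beside 33.8% of all genes. Rab37, a Rab of mast cell granules, fell from 281 ± 19.4 CPM (SD, n = 6) to 139 in PMC-303 and 130 in PMC-306 (−1.06 ± 0.08, SE, limma, adjusted p = 9.63e-05). Chml, which encodes a Rab escort protein, rose by 1.19 ± 0.16 (SE, limma, adjusted p = 8.83e-04). Sytl3, a synaptotagmin-like protein, rose from 87.8 ± 19.8 to 158 and 123 CPM (0.69 ± 0.21, SE, limma, adjusted p = 0.0336).

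Of 9 exocyst genes, which encode the complex that tethers secretory vesicles, 4 fell and 0 rose, 44.4% together beside 33.8% of all genes. Exoc4 fell by 0.98 ± 0.13 (SE, limma, adjusted p = 7.20e-04), from 313 ± 12.9 CPM (SD, n = 6) to 192 in PMC-303 and 131 in PMC-306. Exoc6b fell by 0.84 on the log2 scale (limma, adjusted p = 0.00107) and Exoc5 by 0.25 (limma, adjusted p = 0.0393), the latter not by total counts or in TPM.

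Of 23 genes for lysosome-related organelles, the class to which mast cell granules belong, 2 rose and 10 fell. Together these were 52.2% of the list, beside 33.8% of all genes. Lyst, whose loss gives the giant granules of the beige mouse, fell from 182 ± 20.02 CPM (SD, n = 6) to 94.6 in PMC-303 and 87.2 in PMC-306 (−0.998 ± 0.12, SE, limma, adjusted p = 4.35e-04). Vps39, a subunit of the HOPS tethering complex, fell by 0.97 on the log2 scale (limma, adjusted p = 0.00136). Dtnbp1, encoding dysbindin of the BLOC-1 complex, rose from 83.7 ± 9.63 to 121 and 157 CPM (0.72 ± 0.14, SE, limma, adjusted p = 0.00483).

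**Figure D5:**
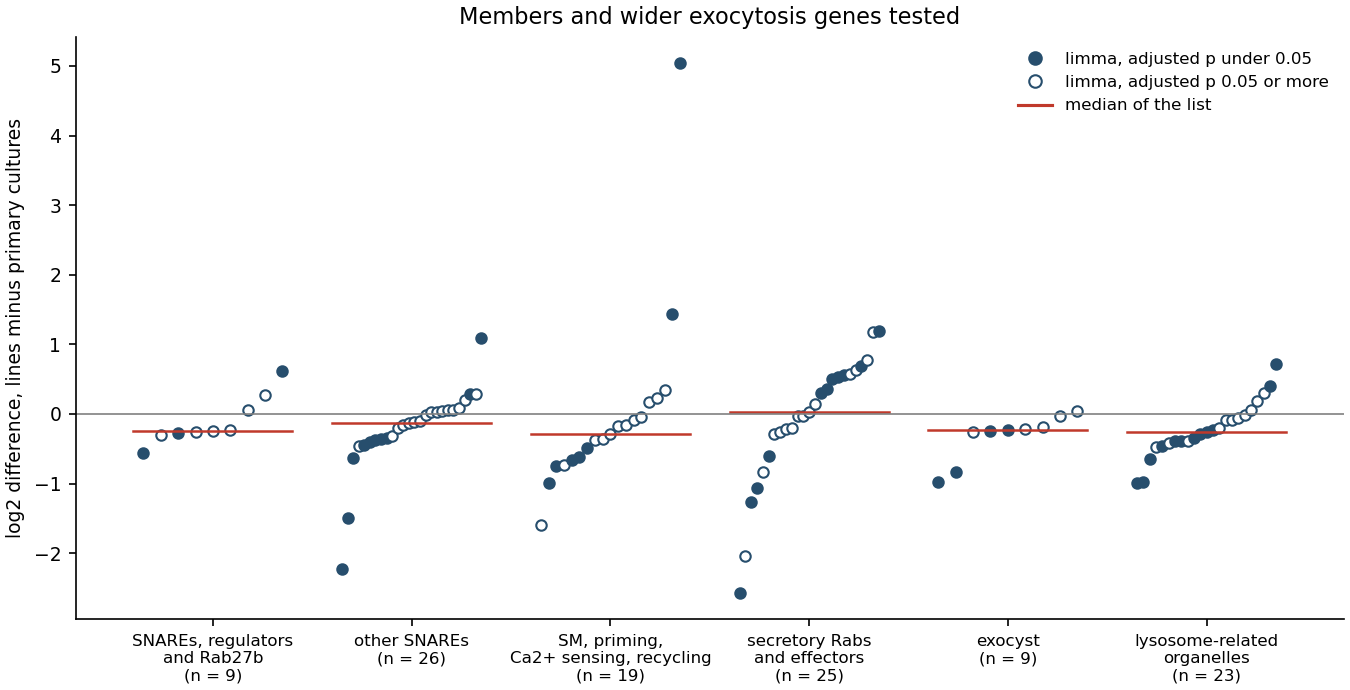
Log2 difference between both lines and the 6 primary cultures for the 9 genes of the fusion machinery (left) and for the tested genes of 5 wider lists, each sorted from lowest to highest. Filled points passed an adjusted p of 0.05 in limma and red bars are medians. The 9 genes lie between −0.57 and 0.62, while the wider lists reach from Sytl4 at the bottom to Syt9 at 5.04. Sytl4 had 0 counts in both lines and a mean of only 0.552 CPM in the primary cultures, so that the offset of 0.1 CPM weighs on its difference.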

How the data were processed

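RNA sequencing of 8 PMC cultures was used, 1 each of PMC-303 and PMC-306 and 6 primary cultures, grouped by sample title. The authors prepared stranded total RNA libraries, trimmed reads with Trim Galore 0.6.7, aligned them to GRCm39 with STAR 2.7.9a and quantified them with Salmon 1.5.2. The tables the authors deposited give Salmon's estimated counts of genes and of transcripts, which are not normalized, and gene TPM, which allows for length and depth. A spreadsheet program had rewritten 3.37% of the gene count, 3.22% of the transcript count and 20.8% of the TPM cells, which were restored by a script. Restored gene and summed transcript counts then differed by at most 0.2 in 99.7% of cells. In 1.17% of the TPM cells the decimal point was placed with the help of the counts. Since the tables hold rewritten cells, the deposited columns were not treated as count tables, and limma 3.58.1 in R 4.3.3 was run on log2(CPM + 0.1) allowing for a trend of variance with level. Genes needed the CPM equal to 10 counts in 2 libraries (3 between sexes) and 15 counts in all. A fold on this scale slightly understates the change of low genes.

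TMM library sizes were computed by a script of the published method. Primary libraries differed by more than sampling noise (chi-square over its degrees of freedom, 20.6 to 68.1), and none was taken as a duplicate. Labels call the primary samples biological replicates, and nothing says whether cultures share a litter. The fit was tested on simulated data in which both lines changed alike and all genes shared the same dispersion. That test does not cover lines that differ from each other. A share of counts has a 95% Wilson interval. Coordinates and sequences come from GENCODE M39 (GRCm39), which holds 98.9% of the genes by identifier. They were handled with Python 3.11.15, numpy 2.4.6, pandas 2.3.3, Biopython 1.88 and matplotlib 3.10.9. Transcript shares were compared for genes with at least 100 counts in each library. The members and lists were chosen with earlier results of these data known. Named from the wider lists were the 3 largest called differences of each list with at least 10 CPM in the lines or the primary cultures, and 10 close relatives of the members, of which 1 is not reported here. Sytl4 was named after its values were seen, as the lowest point of a plot. Other scalings, TPM, a larger offset, no filter, summed transcript counts, voom weights, controls of 1 sex and leaving out each library were tried. Vamp7 was not analysed here, and the transcript TPM table was not used.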

Additional observations from a re-analysis of the deposited data

How the results depend on the processing

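Of the 9 genes, all except Vamp2 kept the direction of their difference between the lines and the primary cultures in each of the 17 other settings. Vamp2, near 0, turned to −0.024 without PMC-306 and to −0.00396 without female culture 2. In the count of members called (3), TPM gave 1 and female controls alone gave 0, and leaving out 1 library at a time gave 2 to 4. Members outside the primary range in both lines (5) were 2 by total counts, 1 in TPM, and 5 to 6 without 1 primary culture, and the count has no value without a line. For the wider lists (44 called) TPM gave 25, female controls 16, male controls 25, and leaving out 1 library 28 to 43. Over all genes (4913 called) female controls gave 2149, male controls 3027, and leaving out 1 library 3851 to 4655. These settings use fewer samples, and the other causes were not tested. Snap23 passed with male controls alone (limma, adjusted p = 0.0494). Relative to TMM, the median of all genes shifted by 0.11 by total counts and 0.14 in TPM, and the share of higher among called genes went from 54.1% to 67.2% and 70.8%. Counts divided by the length of the longest transcript, in place of TPM, put the share of Stx3 at 23.6% in primary cultures, 28.4% in PMC-303 and 32.2% in PMC-306, and that of Rab27b at 87.2%, 85.9% and 88.6%.

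Between sexes 0 members passed in all 12 other settings, as without any 1 culture (0). With the replicate block (replicate number as a paired term) 0 members and 5 genes passed, against 6 without it. Deviations of female and male cultures with the same number correlated at 0.40, −0.22 and 0.28, so the numbers were not taken to pair the cultures. With 168 to 280 counts per library, Vamp2 is the member that depth limits most.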
